A study of Mus musculus with 2 samples.

Results

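The barcodes described here are the high-mitochondrial barcodes of 2 single-cell libraries of mouse leukemia cells. They were chosen by a measured value, the share of a barcode's unique molecular identifiers (UMIs, each standing for 1 captured transcript) that fall in genes whose symbol starts with mt-, and every deposited barcode with more than 10% was taken. There were 694 such barcodes among 15114, of which 290 of 7281 came from the oil library and 404 of 7833 from the tamoxifen library. Of these, 403 had at least 500 detected genes (161 in the oil and 242 in the tamoxifen library) and 291 had fewer (129 and 162), and both sets are given separately throughout. The comparison barcodes were those with 2 to 10% mitochondrial UMIs in the same library, 6579 in the oil and 7349 in the tamoxifen library. The remaining 412 and 80 barcodes lay under 2%.

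Both libraries came from splenocytes of C57BL/6 mice, 8 to 12 weeks old when transplanted, that carried the same type of acute myeloid leukemia, driven by AML1-ETO9a (AE9a), a truncated fusion protein, from a retrovirus that also encodes GFP. In both groups the leukemia cells derived from Usp18+/f UBCER-Cre fetal liver cells, which carry 1 conditional allele of Usp18 and a tamoxifen-inducible Cre driven by the ubiquitin C promoter, so that Cre is not restricted to a cell type. Recipients received 2 injections of oil, giving the library labelled Usp18+/f, or of tamoxifen at 100 mg per kg, giving the library labelled Usp18+/Δ. Each library pools GFP+ Lin- c-Kit+ cells of 3 mice, sorted on day 3 counted from the first injection. The paper irradiated primary recipients at a lethal and secondary recipients of AE9a cells at a sub-lethal dose, and does not say which were used here. It reports host cells among the splenocytes of AE9a recipients. Each group is therefore 1 library with no replicate, no test was run between or within them, and every interval below is a 95% interval that covers counting error only.

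Mitochondrial DNA is transcribed from both strands as long precursors that are cut into 2 ribosomal RNAs, tRNAs and messenger RNAs, and the messenger RNAs encode 13 subunits of the respiratory chain and the ATP synthase. These messenger RNAs stay inside the organelle, whereas cytoplasmic messenger RNAs are lost when the plasma membrane of a cell leaks. A high mitochondrial share is used in single-cell work as a mark of damaged cells or of free organelles, and it is also seen in intact cells with many mitochondria, so the share alone does not tell these apart. USP18 removes the ubiquitin-like protein ISG15 from its targets and restrains signalling from the type I interferon receptor.

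The library labelled Usp18+/Δ held more Usp18 messenger RNA than the library labelled Usp18+/f, at 25.5 against 6.06 CPM (counts per 1e+06 non-mitochondrial UMIs) among the comparison barcodes. This goes against the label, and which exons the reads come from cannot be read from gene counts. Usp18 is itself induced by interferon, and Isg15, another interferon-induced gene, stood at 121 against 22.3 CPM in the same barcodes. Whether both values move together for that reason was not tested. The lowest total in either library was 500 UMIs, so a barcode with few other transcripts could be present only if it carried many mitochondrial UMIs. The libraries shared 15 barcode sequences, none of them a member in the oil library and 2 of them members in the tamoxifen library. At least 1 UMI of the leukemia and progenitor markers was present in 161 of 161 and 242 of 242 members with at least 500 genes, and in 22 of 129 and 24 of 162 members with fewer, where they gave 41 and 64 UMIs in all. Free RNA can also give such UMIs, its share was not measured here, and erythroid markers were present in 31 of 129 and 37 of 162 of the members with fewer genes, so these counts do not give the identity of a barcode.

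High-mitochondrial barcodes made up 3.98% (3.55 to 4.46%) of the oil library and 5.16% (4.68 to 5.67%) of the tamoxifen library. Restricted to barcodes that reached 500 genes, it was 2.28% (1.95 to 2.66%) in oil and 3.16% (2.78 to 3.58%) in tamoxifen, and the log2 ratio of tamoxifen over oil was 0.47 (0.19 to 0.75). Members with fewer than 500 genes were 1.77% (1.48 to 2.10%) and 2.07% (1.76 to 2.41%) of all barcodes, and that log2 ratio of 0.22 had an interval from -0.11 to 0.55. The share was thus higher in the tamoxifen library for the barcodes with at least 500 genes, while for the others the counting interval included no difference, and with 1 library per group neither can be attributed to the treatment. Of all barcodes with fewer than 500 genes, 129 of 234 in the oil library and 162 of 185 in the tamoxifen library were members.

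The members carried about as many mitochondrial transcripts as other barcodes, and fewer of all others. In the oil library the median number of mitochondrial UMIs was 599 in members with at least 500 genes, 691 in members with fewer genes and 581 in barcodes at 2 to 10%. In the tamoxifen library the corresponding medians were 564.5, 653 and 542. The median number of other UMIs, in contrast, was 4558, 24 and 8304 in the oil library and 3938, 34.5 and 7635 in the tamoxifen library. Both libraries therefore showed the same order, and the 500 UMI minimum bears on the second of these sets. The rule selects on the ratio of both quantities, so these medians are a description.

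**Figure D1:**
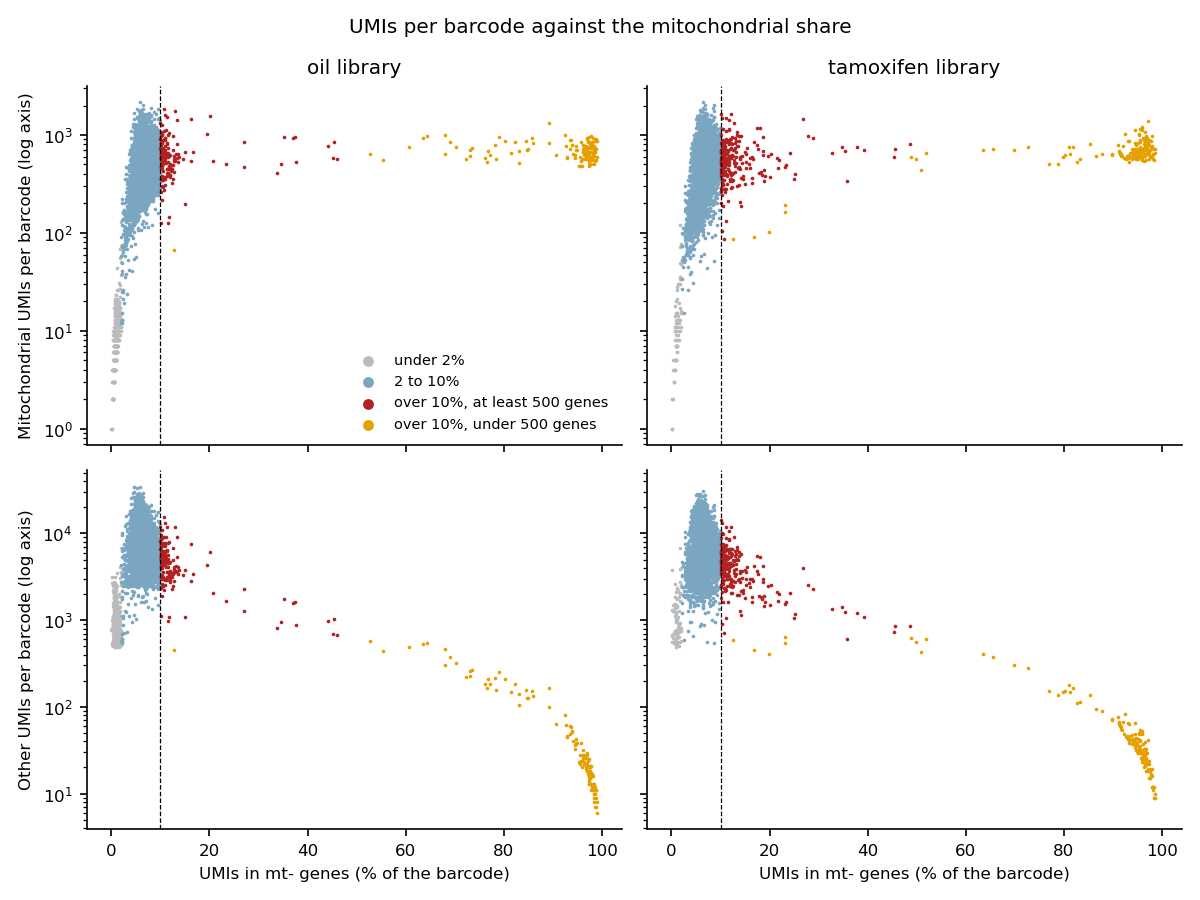
Each point is 1 barcode, with its percentage of UMIs in mt- genes on the x axis and its mitochondrial UMIs (upper row) or other UMIs (lower row) on logarithmic y axes, for the oil library (left) and the tamoxifen library (right). The dashed line marks 10%. Barcodes with 0 mitochondrial UMIs are drawn at 1, because the axis is logarithmic. From 10% upward the mitochondrial UMIs stay level while the other UMIs fall to medians of 22 and 32 in the barcodes over 75%.

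The members fell into a dense group just above the threshold and a second one near 100%. Of the members with at least 500 genes, 140 of 161 in the oil library (87.0%) and 194 of 242 in the tamoxifen library (80.2%) lay at 10 to 15%, and only 12 and 14 exceeded 25%. Of the members with fewer than 500 genes, 115 of 129 (89.1%) and 149 of 162 (92.0%) exceeded 75%, with a median of 22 and 32 other UMIs and 12 of the 13 mt- genes detected. At the threshold itself there was no break. The 225 and 202 barcodes just outside, at 9 to 10%, had a median of 5730 and 5470 other UMIs, and the 86 and 92 just inside, at 10 to 11%, had 5195 and 4641.5. None of the barcodes on either side of this edge had fewer than 500 genes.

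Members with at least 500 genes had a median of 2022 genes in the oil library and 1897.5 in the tamoxifen library, against 2967 and 2828 at 2 to 10%. When each barcode was thinned to 500 non-mitochondrial UMIs, which left out no barcode of these sets, the medians were 373 and 379.5 genes in the members and 374 and 374 in the comparison barcodes. The upper part of the members lay higher at this depth, with a 90th percentile of 409 and 409.9 genes against 393 and 392.

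Within the mitochondrial transcripts, the rule used only the sum of the 13 genes and not their proportions. That sum is also the denominator of each share, so the shares are not independent of the rule and are a description. In members with at least 500 genes the log2 ratios over the comparison barcodes lay between -0.18 and 0.12 in both libraries, except for mt-Nd6 (-0.77 and -0.61) and, in the oil library, mt-Atp8 (-0.31, -0.63 to -0.01). In members with fewer genes they ranged from -0.59 to 0.40 in the oil and from -0.59 to 0.67 in the tamoxifen library. All 13 genes lie on chromosome M (mm10, GENCODE vM21), and all but mt-Nd6 are encoded on the plus strand. The overlapping pairs mt-Atp8 with mt-Atp6 and mt-Nd4l with mt-Nd4 are less certain, because reads in the shared bases cannot be assigned to 1 of them.

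Of complex IV, cytochrome c oxidase, mt-Co1 (chrM:5328-6872), the catalytic subunit, took 15.8% of the mitochondrial UMIs at 2 to 10% in the oil library, 14.7% in members with at least 500 genes and 10.5% in members with fewer. In the tamoxifen library its share was 16.3%, 16.1% and 10.8%. The log2 ratio of its share in members with fewer than 500 genes was -0.59 (-0.62 to -0.56) in the oil library and -0.59 (-0.62 to -0.57) in the tamoxifen library. The fall was gradual over the members, since mt-Co1 took 14.97% and 16.4% at 10 to 15%, 12.01% (11.3 to 12.7%) and 12.7% (12.1 to 13.4%) at 25 to 50%, and 10.5% and 10.7% over 75%. Against comparison barcodes of like depth the log2 ratio at 25 to 50% was -0.67 and -0.84. Per barcode, the median share was 10.2% with an SD of 2.71 over 129 oil barcodes and 10.5% with an SD of 3.09 over 162 tamoxifen barcodes, against 15.7% (SD 3.14) and 16.2% (SD 4.24) at 2 to 10%. The copper-binding subunit mt-Co2 moved the other way, from 16.3% and 16.4% at 2 to 10% to 19.5% and 19.1% in members with fewer than 500 genes, and mt-Co3 went from 19.9% and 20.1% to 21.7% and 21.5%. Complex IV as a whole thus kept its share, at 52.0% and 52.8% at 2 to 10% and 51.6% and 51.5% in these members.

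Of complex I, NADH dehydrogenase, 7 subunits are encoded here, and together they took 19.2% and 19.4% at 2 to 10%, 18.2% and 18.3% in members with at least 500 genes, and 16.5% and 16.7% in members with fewer. The members with fewer than 500 genes had lower shares of mt-Nd4, with log2 ratios of -0.53 and -0.52, of mt-Nd1 (-0.41 and -0.38) and of mt-Nd5 (-0.28 and -0.34). The direction of mt-Nd1 depended on the depth of the comparison barcodes. Against those of like depth it had 0.76 (-0.60 to 2.64) in the oil members over 75%, from 4 UMIs in the 9 comparison barcodes, and 0.21 (0.01 to 0.42) and 0.47 (0.34 to 0.60) in the oil and tamoxifen members over 25% with at least 500 genes. Their share of mt-Nd2 was higher, at 0.22 (0.18 to 0.26) and 0.17 (0.14 to 0.21), and so was that of mt-Nd4l, at 0.40 (0.20 to 0.59) and 0.67 (0.51 to 0.83). For mt-Nd3 the intervals of the oil library included 0. Complex V, the ATP synthase, was represented by mt-Atp6, with 22.3% and 21.3% at 2 to 10% and 25.1% and 24.9% in members with fewer than 500 genes, and by mt-Atp8, with 99 and 165 UMIs in them. The 1 complex III gene, mt-Cytb, was within a log2 ratio of 0.12 in all 4 sets of members.

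The light-strand gene mt-Nd6 differed from the others in members with at least 500 genes. It took 0.152% and 0.160% of the mitochondrial UMIs at 2 to 10% and 0.0891% (94 UMIs) and 0.104% (153 UMIs) in these members, log2 ratios of -0.77 (-1.08 to -0.48) and -0.61 (-0.86 to -0.38). Its share was 0.302% and 0.279% at 2 to 5%, 0.141% and 0.153% at 5 to 10%, and 0.0701% and 0.101% at 10 to 15%, so it fell across the threshold in both libraries. In the members with fewer than 500 genes it was 0.160% and 0.220%, with an interval of the log2 ratio that included 0 in the oil library (-0.18 to 0.31) and lay above 0 in the tamoxifen library (0.27 to 0.65). For the oil members over 75% the log2 ratio was -4.91 (-5.99 to -3.56) against the 9 comparison barcodes of like depth, which held 7 mt-Nd6 UMIs, so no direction can be given for this gene there. Against comparison barcodes of like depth, given further on, the members with at least 500 genes kept their direction, at -0.60 and -0.50. Over 15% and over 20% the oil members had 0.39 (-0.17 to 0.89) and 0.74 (0.15 to 1.28), from 31 and 28 UMIs, against all comparison barcodes, so the lower value there rests on the members near the threshold, and at 25 to 50% the 12 oil barcodes, with 23 UMIs, had 0.51 (-0.47 to 1.53) and the 14 tamoxifen barcodes, with 12 UMIs, -0.86 (-1.85 to -0.00035) against barcodes of their own depth.

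**Figure D2:**
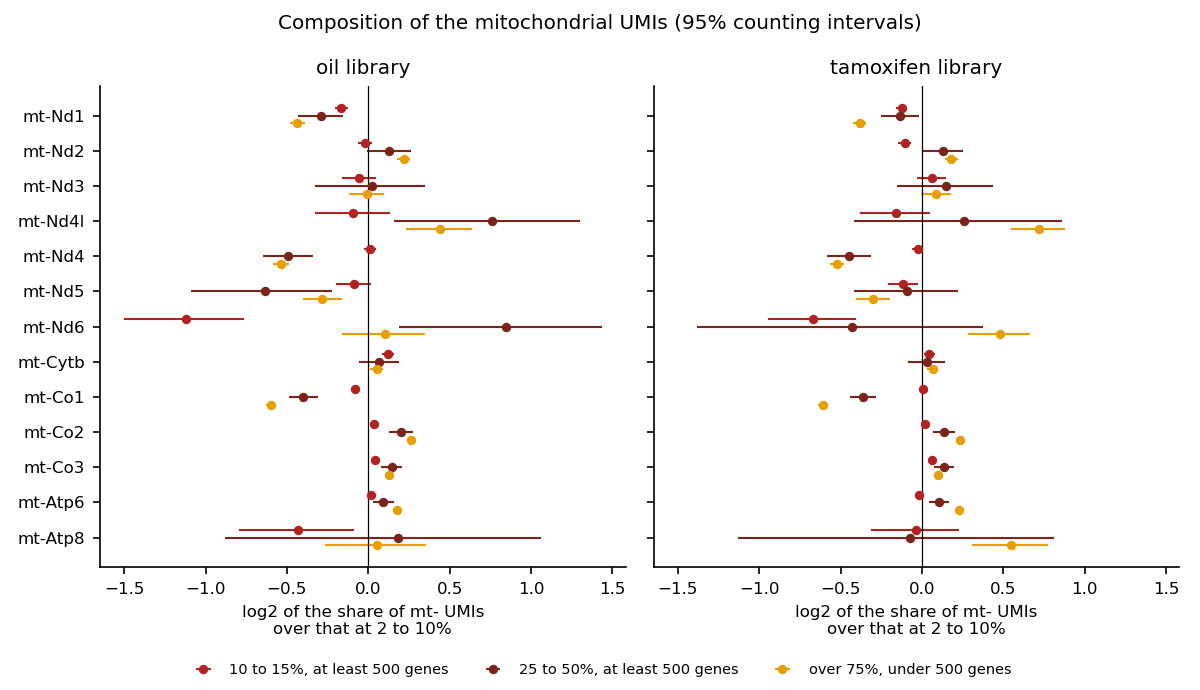
The x axis is the log2 ratio of each mt- gene's share of mitochondrial UMIs over its share at 2 to 10%, with genes on the y axis, for members at 10 to 15% and 25 to 50% with at least 500 genes and members over 75% with fewer, and lines are 95% counting intervals. The shares of mt-Co1 (-0.60 and -0.61 over 75%) and mt-Nd4 (-0.54 and -0.52) were lower and that of mt-Co2 (0.26 and 0.23) was higher in both libraries, and those at 25 to 50% lay between the other sets for mt-Co1.

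Outside the mitochondrial genes, members with at least 500 genes were close to the comparison barcodes of their library. When genes averaging 50 CPM or more over both sets were considered, 96.1% of 3442 genes in the oil library and 93.5% of 3574 genes in the tamoxifen library lay within 1.5-fold. At least 2-fold higher were 7 genes in the oil library (0.203%) and 13 in the tamoxifen library (0.364%), and at least 2-fold lower were 9 (0.261%) and 3 (0.0839%). No gene passed 2-fold in the same direction in both libraries, while 23 of 57 oil genes and 23 of 102 tamoxifen genes past 1.5-fold upward were shared. Across the 3313 genes tested in both libraries, which are not independent of each other, Pearson's r of the log2 ratios was 0.52. Because the members held fewer UMIs, each ratio was also taken against comparison barcodes of like depth, those between the 10th and the 90th percentile of the members' total UMIs (2573 to 8944 UMIs, 3275 barcodes, in the oil library and 2120.5 to 7604, 3066 barcodes, in the tamoxifen library). Against these the number past 2-fold was 0 in the oil library and 29 in the tamoxifen library.

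Of the 20 genes named by rule, 10 were higher. The leading one, Gm42418 (chr17:39846958-39848788), is listed by RefSeq as an 18S ribosomal RNA related sequence, and it stood at 2477 CPM in members against 1281 CPM in comparison barcodes in the oil library and at 5360 against 1573 CPM in the tamoxifen library. Its log2 ratios were 0.95 (0.89 to 1.02) and 1.77 (1.73 to 1.81), and 0.71 and 1.38 at like depth, so its pooled level was higher in both libraries under both references. Without the 1 barcode with the most Gm42418 UMIs in each library, an alternative chosen after seeing the data, the ratios were 0.84 and 1.63. The rRNA-derived list, of which it is the main gene, took a median of 0.177% of a barcode's non-mitochondrial UMIs in oil members against 0.158%, with a 90th percentile of 0.732% against 0.305%, and 0.365% against 0.168% in the tamoxifen library, where 1 member held 31.6%. AY036118, a long noncoding gene inside the same interval whose reads may not be separable from it, had 0.68 and 0.99. The remaining gene of the list, Gm26917, was not higher in the oil library, at -0.12 (-0.35 to 0.09), and had 1.17 (1.05 to 1.28) in the tamoxifen library. Ogt, which adds N-acetylglucosamine to intracellular proteins, had 0.61 (0.40 to 0.81) and 0.64 (0.47 to 0.82), with 0.30 and 0.21 at like depth. Ikzf2, a zinc-finger transcription factor, and Cd84, an adhesion receptor of leukocytes, had 0.74 and 0.72 in the oil library and 0.83 and 0.95 in the tamoxifen library, with at most 0.25 at like depth. The other 2 named genes, AC149090.1 and the noncoding Gm20342, had 0.80 and 0.65 in the oil library and 0.89 and 0.94 in the tamoxifen library, and stayed above 0 at like depth.

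The remaining higher genes changed with the reference. S100a6, a calcium-binding protein, had a log2 ratio of 1.63 (1.44 to 1.81) in the oil library, from 250 UMIs in 47 of 161 barcodes, and of 0.59 (0.34 to 0.83) in the tamoxifen library, which turned to -0.09 at like depth. Cma1, the mast cell chymase, had 1.24 and 0.66, with 0.38 and -0.51 at like depth. Lgals3, encoding galectin-3, had 0.69 and 0.64, with -0.03 and -0.30 at like depth. The direction of these 3 genes in the tamoxifen library, and of Lgals3 in both, thus depended on the depth of the comparison barcodes.

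Genes of G2 phase and mitosis were lower in the members against all comparison barcodes and higher against those of like depth, so no direction can be given for them. Of 36 listed genes, 23 were tested in each library, and 5 in the oil and 2 in the tamoxifen library were at least 2-fold lower, where 0.261% and 0.0839% of all genes tested were. The median log2 ratio was -0.77 in the oil and -0.61 in the tamoxifen library, against 0.00 and 0.03 over all genes tested, and it was 0.35 and 0.94 at like depth. Top2a, which encodes topoisomerase II alpha, stood at 233 CPM in members and 428 in comparison barcodes of the oil library, and at 297 and 410 CPM in the tamoxifen library. Hmgb2, a chromatin protein of dividing cells, stood at 2660 against 3616 CPM and at 1947 against 2871 CPM. Of the 10 genes named as lower, Birc5, which encodes survivin, stood at 107 CPM against 214 and at 94.3 against 186, with -0.01 and 0.38 at like depth. Psat1, an enzyme of serine synthesis, had -0.83 (-1.12 to -0.55) and -0.77 (-1.02 to -0.53), and -0.47 and -0.17 at like depth. Together with the chromatin protein gene Anp32e (-0.73 and -0.72, and -0.39 and -0.25 at like depth) it kept its sign in both libraries, while Cenpe turned to 0.17 and 1.01 and Ube2c to 0.44 and 1.46.

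The pooled level of RNAs that stay in the nucleus was higher in the members, and in the oil library this lay in the upper part of the barcodes. The list took a median of 1.07% of a barcode's non-mitochondrial UMIs in oil members and 1.05% in comparison barcodes, with a 90th percentile of 3.82% and 2.23%. In the tamoxifen library the medians were 1.75% and 1.07% and the 90th percentiles 4.39% and 2.45%. Of 13 listed, 6 could be tested, 5 were above 0 in each library and none passed 2-fold, with medians of 0.36 and 0.58, and 0.11 and 0.21 at like depth. Malat1 stood at 10473 CPM in members against 8914 in comparison barcodes of the oil library and at 13679 against 8969 in the tamoxifen library, log2 ratios of 0.23 (0.20 to 0.26) and 0.61 (0.58 to 0.63). Xist, the RNA that coats the inactive X chromosome, had 0.54 (0.47 to 0.60) and 0.75 (0.70 to 0.81). Kcnq1ot1 had 0.10 (-0.02 to 0.21), an interval that includes 0, and 0.54 (0.46 to 0.63), and Neat1, the scaffold of paraspeckles, 0.48 and 0.66.

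Genes of translation and of the nuclear-encoded respiratory chain had pooled log2 ratios near 0, while part of the members held a lower share of them. Cytosolic ribosomal proteins took a median of 27.0% of a barcode's non-mitochondrial UMIs in oil members and 27.4% in comparison barcodes, with a 10th percentile of 15.7% and 23.5%. In the tamoxifen library the medians were 25.6% and 27.6% and the 10th percentiles 15.3% and 23.8%. Nuclear oxidative phosphorylation genes had 10th percentiles of 1.76% and 2.11% in the oil and 1.38% and 1.89% in the tamoxifen library. For 76 cytosolic ribosomal protein genes the median log2 ratio was -0.03 in each library, from -0.37 to 0.28 over single genes, and none passed 2-fold. For 77 tested nuclear genes of oxidative phosphorylation it was -0.04 and -0.13, and 0.00 and 0.01 at like depth. Mitochondrial ribosomal proteins had medians of -0.06 and -0.18, and mitochondrial chaperones and proteases, which fold and remove proteins in the organelle, -0.06 and -0.07. Of these, Hspe1 had -0.13 (-0.24 to -0.02) and -0.30 (-0.41 to -0.20), and the chaperonin Hspd1 had -0.37 (-0.55 to -0.21) and -0.56 (-0.71 to -0.41).

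For the lists of stress and cell death the medians lay between -0.28 and 0.31, against 0.00 and 0.03 over all genes tested. The BCL2 family and caspases, which control apoptosis, had a median of 0.08 in each library over 10 tested genes of 27. The inflammasome and pyroptosis list had -0.08 and -0.12 over 4 tested genes of 22. Gsdmd, the pore-forming protein of pyroptosis, was under the minimum level, with 38.6 against 39.0 CPM and 36.3 against 37.7 CPM. Mitophagy and turnover genes had 0.10 and 0.23, genes of the integrated stress response -0.15 and -0.03, and p53 targets -0.05 and 0.21. Immediate early genes had 0.31 in each library, and inducible heat shock genes -0.07 and -0.28. Of the remaining lists, glycolysis had -0.18 and -0.16, the cytoskeleton 0.05 and 0.02, ER chaperones and the secretory pathway -0.03 and -0.14, clustered histones -0.38 and -0.13, mitochondrial gene expression -0.09 and 0.07, and interferon-stimulated genes 0.21 and 0.11, the last turning to -0.16 in the tamoxifen library at like depth.

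**Figure D3:**
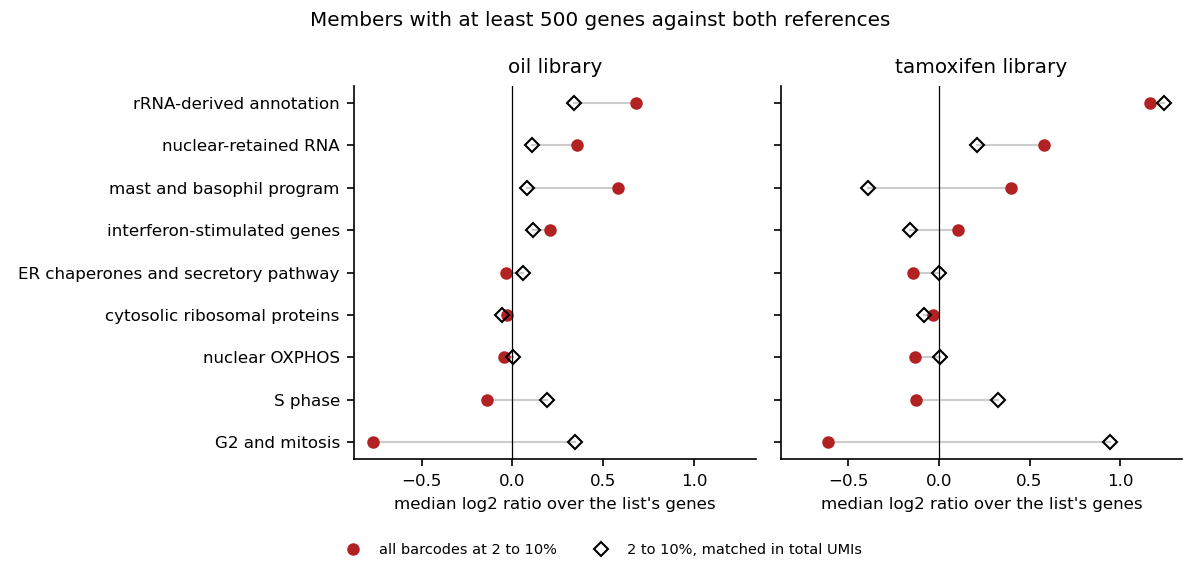
The x axis is the median log2 ratio over each list's tested genes for members with at least 500 genes, against all barcodes at 2 to 10% (filled) and against those of like total UMIs (open), by library. G2 and mitosis turns from -0.77 to 0.35 in the oil and from -0.61 to 0.94 in the tamoxifen library, S phase from -0.14 to 0.19 and from -0.13 to 0.33, and in the tamoxifen library the mast and basophil program from 0.40 to -0.39 and the interferon-stimulated genes from 0.11 to -0.16. Nuclear-retained RNA and rRNA-derived annotation stay above 0 in both.

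Genes of mast cells and basophils were widely detected in both libraries, and against all comparison barcodes their median was above 0 in the members, which did not hold at like depth in the tamoxifen library. Of 22 listed genes, 14 and 15 were tested, with medians of 0.58 and 0.40, which became 0.08 and -0.39 at like depth. In the oil library 5 of the 7 genes at least 2-fold higher were on this list, where 0.203% of all 3442 genes tested were at least 2-fold higher. These 5 are named after their values were seen. At like depth 0 genes passed 2-fold in the oil library, so none of these calls held there. Mcpt1, a mast cell protease, stood at 442 CPM in members against 197 in comparison barcodes of the oil library, whereas in the tamoxifen library it stood at 33.4 against 86.4. The protease Mcpt2 had log2 ratios of 1.29 and 0.33, the protease inhibitor Serpinb1a 1.92 and 0.40, Cma1 those given above, and the fifth was Csf2rb2, a cytokine receptor chain, with 1.62 in the oil library. The most abundant gene of the list, Srgn, which encodes the granule proteoglycan serglycin, differed by 0.28 and -0.06.

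Markers of other hematopoietic cells were rare in the members with at least 500 genes. Over their lists, markers of neutrophils gave 0 and 1 UMI, of T cells 1 and 2, of B and plasma cells 0 and 1, and of dendritic cells 3 and 1 in the oil and tamoxifen library. Macrophage markers gave 10 UMIs in 10 barcodes of the oil library and 44 UMIs in 10 barcodes of the tamoxifen library, 30 of them in 1 barcode. The NK cell list gave 20 and 34 UMIs, all of Nkg7, with the defining Ncr1 and Klrb1c at 0. Platelet and megakaryocyte markers gave 10 and 22 UMIs. The endothelial and stromal list gave 90 UMIs in each library, 88 and 86 of them of Dcn, with the endothelial Cdh5 and Kdr at 0. Erythroid markers were found in 159 of 161 and 238 of 242 members, and as widely among comparison barcodes (6578 of 6579 and 7326 of 7349).

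Among the members with at least 500 genes, the pooled lists changed with the mitochondrial share. The 12 oil and 14 tamoxifen barcodes with at least 500 genes and over 25% are few, hold 14518 and 20379 non-mitochondrial UMIs in all, and this limit was chosen after the data were seen. In these the summed CPM of endoplasmic reticulum (ER) chaperones and secretory pathway genes stood at 16325 against 6096 in the oil library and at 12120 against 6109 in the tamoxifen library. The log2 ratios were 1.42 (1.23 to 1.60) and 0.99 (0.80 to 1.17), and 1.54 and 1.39 against 63 and 393 comparison barcodes of like depth, with UMIs in all 12 and all 14 barcodes. Of the list's genes with at least 100 CPM among comparison barcodes, 19 of 23 (82.6%) and 20 of 24 (83.3%) were higher, against 41.9% of 1735 and 40.6% of 1709 over all non-mitochondrial genes at that level. This count does not set the ER list apart, since it was 11 of 12 (91.7%) and 8 of 10 (80%) for the mast and basophil list, whose direction depended on the reference. Calr, the ER chaperone calreticulin, had 1.91 (1.41 to 2.37) and 1.80 (1.37 to 2.19), with 24 of its 51 UMIs of the tamoxifen library in 1 barcode. Ppib, an ER prolyl isomerase named after its values were seen, had 2.22 (1.56 to 2.80) and 1.19 (0.38 to 1.89). The more abundant Sec61b, a subunit of the translocation channel, had -0.94 (-2.82 to 0.42) and -0.86 (-2.30 to 0.26). As background, most messages of this list are translated at the ER membrane.

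In the same barcodes cytosolic ribosomal proteins were lower, with a summed log2 ratio of -1.19 (-1.26 to -1.12) and -0.68 (-0.72 to -0.63), and of -0.95 and -0.48 at like depth. Of 76 ribosomal protein genes, 0 in the oil and 3 (3.95%) in the tamoxifen library were higher, beside the 41.9% and 40.6% over all genes, and 1359 of the 3499 ribosomal UMIs of the tamoxifen library lay in 1 barcode. Nuclear-retained RNAs were higher, at 1.83 (1.71 to 1.94) and 1.69 (1.59 to 1.79), and 0.82 and 0.68 at like depth, with Malat1 at 1.68 and 1.66 and Xist at 2.22 and 2.03. The erythroid list was lower, at -1.15 and -0.99. Nuclear oxidative phosphorylation genes had -0.72 and -0.26, but 0.25 in the tamoxifen library at like depth. The mast and basophil program had 1.61 and 0.65 against all comparison barcodes and -0.39 and -1.48 at like depth, so its direction depended on the reference.

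**Figure D4:**
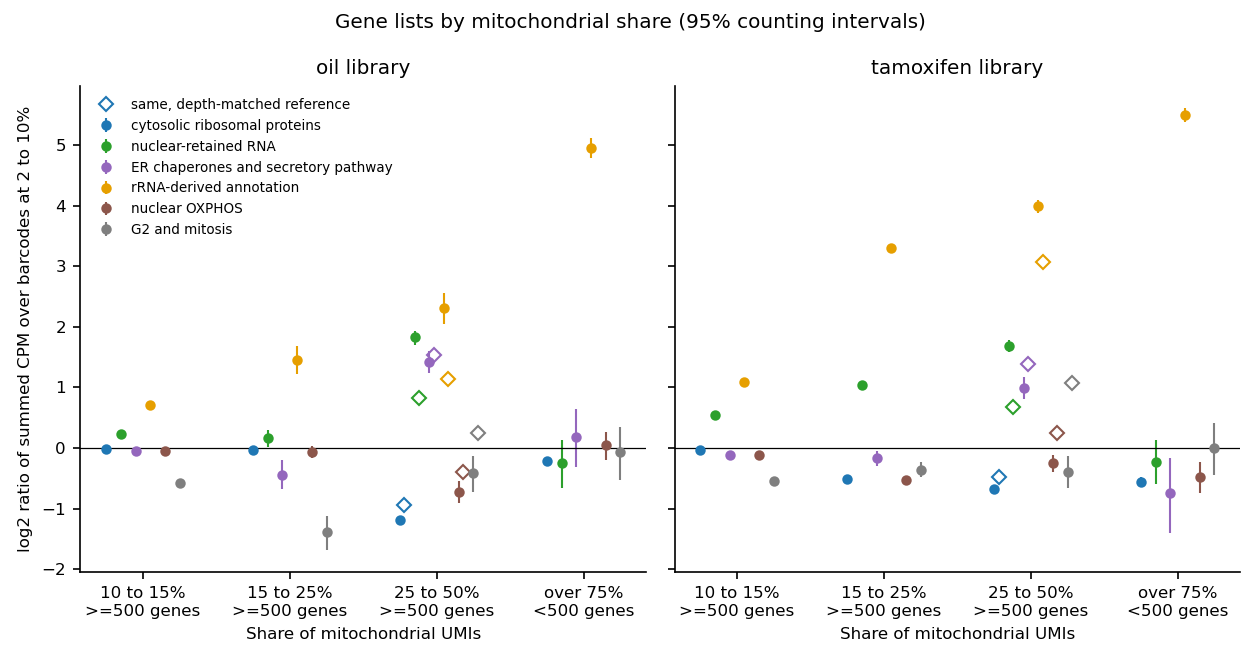
The y axis is the log2 ratio of the summed CPM of a list over barcodes at 2 to 10%, by band of mitochondrial share on the x axis, with 95% counting intervals as bars, and open diamonds give the value at 25 to 50% against comparison barcodes of like depth. At 25 to 50% the ER list (1.42 and 0.99) and the nuclear-retained RNA (1.83 and 1.69) stand above 0 and the ribosomal proteins (-1.19 and -0.68) below it under both references, while G2 and mitosis turns from -0.42 and -0.39 to 0.25 and 1.08 and nuclear OXPHOS in the tamoxifen library from -0.26 to 0.25.

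Members with fewer than 500 genes were described as a sum over barcodes, because each held few other transcripts. The 115 oil and 149 tamoxifen barcodes over 75%, a limit also chosen after the data were seen, held 5338 and 6310 non-mitochondrial UMIs in all. Over all members with fewer than 500 genes, Pearson's r of log2(CPM + 100) with the comparison barcodes was 0.78 over 1735 genes in the oil library and 0.75 over 1709 genes in the tamoxifen library. In the barcodes over 75%, the mast and basophil list stood at log2 ratios of 0.03 (-0.54 to 0.54) and -0.03 (-0.54 to 0.44) and the nuclear-retained list at -0.25 (-0.66 to 0.13) and -0.23 (-0.60 to 0.12), all of which include 0. Cytosolic ribosomal proteins were at -0.22 (-0.30 to -0.14) and -0.57 (-0.65 to -0.48). Few comparison barcodes had the depth of these, 9 in the oil and 4 in the tamoxifen library, and no ratio was taken against the 4. Against the 9 of the oil library the ribosomal proteins turned to 0.34 (0.22 to 0.46) and the nuclear-retained list stood at -0.57 (-1.08 to -0.07), so no direction can be given for the ribosomal proteins in the oil library.

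The RNAs in which these barcodes stood apart were of ribosomal RNA annotation and Lars2. Gm42418 gave 261 UMIs in 75 of the 115 oil barcodes over 75% and 540 UMIs in 125 of the 149 tamoxifen barcodes, log2 ratios of 5.25 (5.07 to 5.43) and 5.77 (5.64 to 5.89), and no barcode held more than 17 and 20 of them. Against the 9 oil barcodes of like depth the rRNA-derived list, of which Gm42418 gave 261 of 288 UMIs, had a smaller ratio of 2.37 (1.97 to 2.79). These ratios are per non-mitochondrial UMI, of which such barcodes by the rule hold few. Counting over all UMIs instead lowers the log2 ratio of every gene of these barcodes by the same amount, and that of Gm42418 in all members with fewer than 500 genes was 1.35 in the oil library and 2.13 in the tamoxifen library, against 4.49 and 5.34 over non-mitochondrial UMIs. AY036118 had 4.13 (3.42 to 4.76) and 4.08 (3.42 to 4.67), from 20 and 23 UMIs. Lars2, the nuclear gene of the mitochondrial leucyl-tRNA synthetase (chr9:123366927-123462666), gave 18 UMIs in 15 barcodes and 25 UMIs in 19 barcodes, at 3372 CPM against 39.0 and 3962 CPM against 46.4, log2 ratios of 6.43 (5.68 to 7.10) and 6.42 (5.79 to 6.98). In all members with fewer than 500 genes the Lars2 ratio was 5.49 and 5.91, and 2.36 and 2.71 over all UMIs. Which part of the Lars2 transcript these UMIs come from cannot be read from gene counts. Both genes were above the comparison barcodes with either denominator in both libraries, and most of these barcodes held no Lars2 UMI.

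Over all members with fewer than 500 genes, Arglu1, a splicing-associated factor, had log2 ratios of 1.41 and 1.80 per non-mitochondrial UMI. Against all comparison barcodes the ribosomal protein gene Rpl41 was lower, at 2221 CPM against 3957 in the oil library and at 1756 against 4038 in the tamoxifen library. It was not set against barcodes of the depth of these members, where the ribosomal list of the oil members over 75% turned upward. Usp18, Isg15 and Cd34 were at 0 UMIs in both libraries. These members hold 10804 and 12531 non-mitochondrial UMIs in all, in which the levels of the comparison barcodes would also give few or none, so this does not show absence. Among 14 oil and 13 tamoxifen barcodes of this set at 10 to 75%, single barcodes carried most of some genes, with 44 of 45 Mcpt1 UMIs of the tamoxifen library in 1 barcode. Of the 36 macrophage UMIs in the tamoxifen members with fewer than 500 genes, 26 lay in 1 barcode, and 10 lay in 6 of the barcodes over 75%, against 1 UMI in the oil barcodes over 75%.

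Members with at least 500 genes were also compared between the libraries, where interferon-stimulated genes stood higher in the tamoxifen library as they did among comparison barcodes. Against the oil library, 27 of 3597 genes were at least 2-fold higher in the members of the tamoxifen library (0.751%) and 9 at least 2-fold lower (0.25%), and among comparison barcodes 6 of 3429 were higher (0.175%) and 2 lower (0.0583%). The ratios of the members rest on fewer UMIs. Usp18 gave 7 UMIs in 161 oil members and 31 in 242 tamoxifen members, 9.02 and 30.4 CPM, a log2 ratio of 1.76 (0.54 to 3.18) beside 2.07 (1.90 to 2.24) in the comparison barcodes. Isg15, the ubiquitin-like protein that USP18 removes, stood at 23.2 and 124 CPM, a log2 ratio of 2.42 (1.70 to 3.22) beside 2.43 (2.35 to 2.52), with 44.4% of its 18 UMIs in the oil members in 1 barcode. Both ratios come mainly from the members near the threshold. Among the 15 oil and 22 tamoxifen members over 20% they were -2.13 and -0.13. These sets hold few UMIs and a gene at 0 UMIs was counted at 3, so no direction can be given for these 2 genes over 20%.

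Of 56 interferon-stimulated genes, 22 were tested in the members. Of these, 19 were higher in the tamoxifen library and 6 of them at least 2-fold, where 0.751% of all 3597 genes tested were. Their median was 0.63 against 0.02 over all genes tested, beside 0.64 over 19 tested genes in the comparison barcodes. Among the members over 20% the median was 0.045, in sets with few UMIs where a gene at 0 UMIs was counted at 3. Of the 6, Parp9 and Rnf213, named after their values were seen, had 1.44 (0.76 to 2.18) beside 1.12 and 1.28 (0.74 to 1.85) beside 1.40. The most abundant, B2m, the light chain of MHC class I, had 0.08 (-0.11 to 0.27) beside 0.39, and Bst2, which tethers viruses at the cell surface, 0.29 (-0.03 to 0.62) beside 0.86. Whether these pairs of ratios differ was not tested, since each group is 1 library. Sp100, a nuclear body protein, had 1.28 beside 1.07, Cyp11a1, an enzyme of steroid synthesis, 1.09 beside 1.32 but -0.49 among members over 15% and -0.22 among those over 20%, and the heat shock gene Hspa1b -2.03 beside -2.13.

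Further genes are given as pairs of ratios, and whether the ratios of a pair differ was not tested. Gm42418 was at 2477 and 5360 CPM, a log2 ratio of 1.11 (1.04 to 1.19) beside 0.30 (0.28 to 0.31) in the comparison barcodes, and Gm26917, a long noncoding gene, 1.40 (1.16 to 1.66) beside 0.11. S100a6 had -1.18 (-1.48 to -0.88) beside -0.14, Crip1, a LIM-domain protein, -1.08 beside -0.47, and Nip7, a ribosome biogenesis factor, -0.91 beside -0.05. Kit, the receptor by which the cells were sorted, had 0.49 (0.12 to 0.86) beside 0.09, from 96 and 177 UMIs, and the progenitor marker Cd34 1.80 (0.60 to 3.23) beside 1.46, from 7 and 32 UMIs. Among members over 15% and over 20% the ratio of Cd34 was -0.013 and -2.13. These sets hold few UMIs and a gene at 0 UMIs was counted at 3, so no direction can be given for Cd34 there. Members over 15% made up 21 of 161 members in the oil and 48 of 242 in the tamoxifen library.

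**Figure D5:**
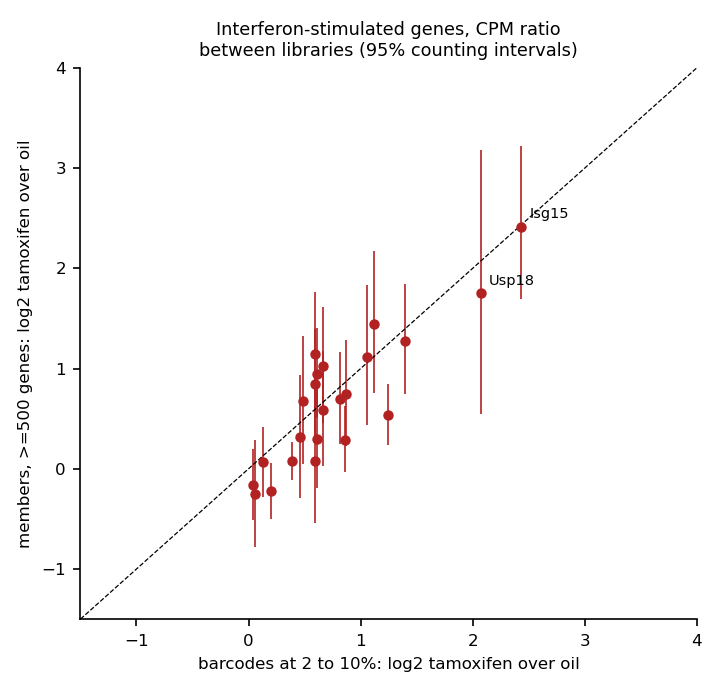
Each point is 1 of the interferon-stimulated genes tested in members with at least 500 genes, with the log2 ratio of CPM of the tamoxifen over the oil library among barcodes at 2 to 10% on the x axis and among the members on the y axis, bars are 95% counting intervals of the members, and the dashed line marks equality. Usp18 (2.07 and 1.76), which was under the minimum level and is drawn as the targeted gene, and Isg15 (2.43 and 2.42) lie highest on the x axis.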

How the data were processed

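Droplet-based single-cell RNA-seq (10x 3′ V3) was performed on 1 library for each group, with 8000 cells targeted. The authors aligned the reads to mm10 and made raw UMI count matrices with Cell Ranger 3.0.2, and these deposited counts of 31053 genes, with no gene filter, were used here. All deposited barcodes were kept, and doublets were not treated. Total UMIs were at least 500 in each barcode.

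Counts were summed over each set of barcodes and expressed as CPM over non-mitochondrial UMIs. A gene was tested at a mean of at least 50 CPM over both sets and called at 2-fold. Intervals are 95% exact Poisson, binomial (Clopper-Pearson) or conditional intervals, with score intervals for ratios of shares, and cover counting error only. No p-value was computed, because each group is 1 library.

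Genes were named by rule. They were the 13 mt- genes, Usp18, Isg15, Kit and Cd34, 2 to 4 members of each described list in order of CPM, and the 10 genes with the largest mean rise and the 10 with the largest mean fall over both libraries. The latter needed a mean of at least 100 CPM, at least 1.5-fold in the same direction in both libraries, UMIs in at least 10 barcodes of each set and no barcode with over 20% of the UMIs. The 5 largest each way were taken for members with fewer than 500 genes and between the libraries. Genes outside these rules, such as Ppib, were named after their values were seen. The members and all lists were chosen with earlier results of these data known. Thinning drew UMIs without replacement with a fixed seed.

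Alternatives were a minimum of 20 or 200 CPM or none, CPM over all UMIs or without ribosomal protein and haemoglobin genes, the mean over barcodes, thresholds of 15% and 20%, a reference at 5 to 10% or of like depth, and members without the deepest 5%. Chosen after seeing the data were members over 75% only, members at 10 to 15% only, members without the barcode with the most Gm42418 UMIs, and a reference of like depth for members over 25% and over 75%. Gene positions are from GENCODE vM21 (GRCm38), which matched 30934 genes. Python 3.11.15, NumPy 2.4.6, SciPy 1.17.1 and pandas 2.3.3 were used, and the scripts were tested on simulated data.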

Additional observations from a re-analysis of the deposited data

How the results depend on the processing

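No paired analysis was possible because oil and tamoxifen have 1 library each, which also means that none could be left out, so nothing here speaks to the spread between mice. The members over 15% and over 20% with at least 500 genes are few (21 and 15 in the oil library, 48 and 22 in the tamoxifen library), the members with fewer than 500 genes hold few UMIs other than mitochondrial ones, and doublets were not treated. The cause of each shift below was not tested. Over all alternatives, 493 of 522 values of named genes, 195 of 214 of gene lists, 100 of 104 of mitochondrial proportions and 231 of 240 of library ratios kept their sign.

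With a threshold of 15% or 20%, the share of barcodes with at least 500 genes fell to 0.298% and 0.213% in the oil library and to 0.628% and 0.288% in the tamoxifen library, and that of all members to 2.05% and 1.96% and to 2.67% and 2.31%. With these thresholds 947 and 1644 genes in the oil library and 735 and 1482 in the tamoxifen library passed 2-fold, against 16 in each at 10%. These sets hold so few UMIs that a gene near 50 CPM has only a few, and a gene at 0 UMIs was counted at 3. The counts therefore cannot be read as numbers of genes that differ. Nuclear-retained RNA moved to 1.02 and 1.53 in the oil library and to 1.14 and 1.31 in the tamoxifen library. Ribosomal proteins moved to -0.32 and -0.41 and to -0.50 and -0.71, and nuclear OXPHOS to -0.23 and -0.53 and to -0.44 and -0.51. Interferon-stimulated genes moved to 0.64 and 0.89 in the oil library and, over 15%, to 0.35 in the tamoxifen library, and G2 and mitosis to -1.08 in the oil library over 15% and -0.44 in the tamoxifen library over 20%. The share of mt-Co1 in members with at least 500 genes moved to log2 ratios of -0.27 and -0.32 in the oil and -0.12 and -0.29 in the tamoxifen library.

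Ratios of tamoxifen over oil within the members came mainly from those near the threshold, and the sets over 15% and over 20% hold few UMIs. A gene at 0 UMIs in a set was counted at 3 there, so a negative value of a gene with few UMIs does not show a reversal. Over 15% and over 20%, Usp18 was at -1.24 and -2.13, Cd34 at -0.013 and -2.13, and Cyp11a1 at -0.49 and -0.22. Over 20%, Isg15 was at -0.13 and Slc7a8 at -0.055, and the median of the interferon-stimulated genes was 0.045.

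Against comparison barcodes of like depth, 0 genes in the oil and 29 in the tamoxifen library passed 2-fold. The G2 and mitosis list turned to 0.35 and 0.94, with Cenpe at 0.17 and Ube2c at 0.44 in the oil library, and interferon-stimulated genes turned to -0.16 in the tamoxifen library. Nuclear OXPHOS moved to 0.0015 and 0.0070 and ribosomal proteins to -0.058 in the oil library. The mt-Co1 ratio was -0.14 and -0.13 in members with at least 500 genes. Members with fewer genes had -0.62 and -0.70 against these same comparison barcodes, which are of the depth of the members with at least 500 genes and not of theirs. Between the libraries, these comparison barcodes had 2.31 for Usp18 and 2.61 for Isg15.

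CPM over all UMIs lowers every gene of a set of members by the same amount, so a turn of sign there says nothing particular to a gene. With it, Gm42418 moved to 1.35 and 2.13, Lars2 to 2.36 and 2.71, Arglu1 turned to -1.72 and -1.41 and Ms4a2 to -2.01 in the oil library among members with fewer than 500 genes. Ribosomal proteins moved to -0.12 and -0.13, nuclear OXPHOS to -0.13 and -0.23, and G2 and mitosis to -0.72 in the tamoxifen library. The mean over barcodes gave -0.11 and -0.15 for ribosomal proteins, -0.20 for nuclear OXPHOS, -0.046 and -0.64 for mt-Co1 in the tamoxifen members with at least 500 and with fewer genes, and 26 genes past 2-fold in the oil library. A minimum of 20 CPM gave 43 and 54 genes past 2-fold, one of 200 CPM gave 5 and 2, and no minimum 1324 and 1588, and with 200 CPM interferon-stimulated genes had -0.14 in the tamoxifen library. Without the deepest 5% of members there were 33 and 32 such genes, with G2 and mitosis at -1.04 in the oil and nuclear OXPHOS at -0.18 in the tamoxifen library. Members at 10 to 15% only, an alternative chosen after seeing the data, gave -0.013 and 0.012 for ribosomal proteins and -0.091 for nuclear OXPHOS in the tamoxifen library. Thinning to 300 UMIs gave 246 and 248 genes in the members and 245 and 244 in the comparison barcodes, and thinning to 1000 gave 651.5 and 668.5 against 651 and 651.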

Other observations

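Further gene groups of the members over 25% with at least 500 genes rest on the same 12 oil and 14 tamoxifen barcodes. Cytoskeletal genes had a summed log2 ratio of -0.78 (-1.03 to -0.54) in the oil and -0.53 (-0.74 to -0.33) in the tamoxifen library against comparison barcodes of like depth. Immediate early genes had -0.78 (-1.48 to -0.16) and -1.60 (-2.51 to -0.82). Mitochondrial chaperones and proteases had 0.62 (0.08 to 1.13) and 1.21 (0.80 to 1.60). The rRNA-derived list had 1.14 (0.85 to 1.42) and 3.08 (2.96 to 3.20), with 394 of its 665 UMIs of the tamoxifen library in 1 barcode. Clustered histones had 0.31 (-0.23 to 0.81) and 1.42 (1.06 to 1.76), S phase genes 0.37 (-0.16 to 0.86) and 1.29 (0.90 to 1.65), and glycolysis genes -0.03 (-0.39 to 0.31) and -0.59 (-0.93 to -0.26), so for these 3 lists the counting interval included 0 in the oil library alone. Genes of the integrated stress response had 0.97 (0.44 to 1.47) and 0.24 (-0.30 to 0.74).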
